A study of Mus musculus with 12 samples.

Results

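The proteasome is the chamber in which cells break down proteins that have been marked with ubiquitin. Its 20S core is a stack of rings whose beta subunits Psmb5, Psmb6 and Psmb7 cut peptide bonds, and the 19S cap on its ends recognises, unfolds and feeds in the substrate. In immune cells, and in other cells exposed to interferon, the cutting subunits are replaced by Psmb8, Psmb9 and Psmb10, which gives the immunoproteasome, and the core can carry the PA28 caps made of Psme1 and Psme2 or of Psme3. Brown adipocytes are known to depend on proteasome activity to stay thermogenic in the cold.

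Proteasome genes were examined in subcutaneous white adipose tissue (scWAT) and brown adipose tissue (BAT) of mice that lack LR11, a sorting receptor encoded by Sorl1. Members were chosen by name, as genes whose symbol begins with Psma, Psmb, Psmc, Psmd or Psme followed by a digit. This gave 45 of the 20660 named genes on the array, each read from its brightest probe. Of these, 43 belong to the proteasome, its assembly or its activators. Psmc3ip and Psme3ip1 are named as interacting proteins of members and were not counted among the 43.

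The 4 groups were scWAT and BAT of wild-type (WT) and of Lr11-/- males, with 3 one-colour arrays in each. All animals were C57Bl6/J mice, 12 weeks old by the labels. They were fed a high-fat diet (HFD) with 60% of its calories from fat. The knockout affected the whole body, and WT littermates were the controls. The labels give HFD both from weaning and as 4 weeks, and the time on the diet is therefore not settled. The labels do not tie arrays to animals, so p-values measure the spread between these arrays. Levels are log2 intensities minus the 75th percentile of the array, which puts that percentile at 0. The test was limma, run on the 32131 probes with a signal well above background in every replicate of 1 or more of the 4 groups. A gene was called where the Benjamini-Hochberg adjusted p was under 0.05 over all of them. The arrays' number limits the precision. Of the 45 genes, 43 passed this filter. Psma8, a testis form of the outer ring, and Psmb11, a thymus form of a cutting subunit, did not reach this in any group.

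Sorl1 lay between 0.91 and 1.15 in WT and between -3.57 and -2.87 in Lr11-/- scWAT (log2 difference -4.34, limma adjusted p = 0.0063), and in BAT between 0.11 and 1.21 and between -3.93 and -2.45 (-3.63, adjusted p = 0.032). Adipocyte markers were well above background on every array (6 of 6), with a mean log2 level of 2.56 on WT scWAT replicate 2 and of 4.66 to 6.5 on the other 11. The arrays differed within groups in other cell types. All 6 skeletal muscle markers were well above background on 5 arrays, namely WT scWAT replicate 3, Lr11-/- scWAT replicate 1, WT BAT replicates 1 and 3 and Lr11-/- BAT replicate 1, where their mean log2 level was 5.39 to 8.63. It was -5.13 to -3.52 on the other 7, with 1 to 3 markers well above background. Their summed linear level, in units of the 75th percentile, ran from 2.17 to 2780 in WT scWAT, 0.864 to 2570 in Lr11-/- scWAT, 0.649 to 898 in WT BAT and 0.799 to 442 in Lr11-/- BAT. Leukocyte markers, 6 of 6 on every array, were highest on WT scWAT replicate 2 (mean 3.30, against -1.28 to 1.28 on the other 11). Brown adipocyte markers averaged -1.04, -2.80 and 2.21 in WT scWAT, 2.48, 6.16 and 6.15 in Lr11-/- scWAT, and 5.48 to 6.64 in BAT, with 5 to 8 of 8 well above background in WT scWAT and all 8 elsewhere. Their summed level ran from 3.61 to 263 in WT scWAT and from 398 to 3640 in Lr11-/- scWAT. Of the 8 markers, 7 were higher on average in Lr11-/- than in WT scWAT. The other was Zic1, at -6.86, 0.76 and 0.46 in WT scWAT and at -3.79, -3.79 and -3.00 in Lr11-/- scWAT (log2 difference -1.65, limma adjusted p = 0.54). On the BAT arrays Zic1 ran from -0.71 to 1.49, so WT scWAT replicates 2 and 3 lay within the BAT range. With bulk tissue, a difference in the share of a cell type cannot be told apart from a difference in RNA per cell.

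Most proteasome genes differed little between the groups. The lowest and highest of a gene's 4 group means lay a median of 0.34 apart on the log2 scale over the 40 tested genes outside the immunoproteasome, against 0.82 over all tested probes. The tested genes of the name rule were also brighter, with a median level of 3.91 against -0.82 over all tested probes. The comparisons with all probes were not matched for level. A smaller span or spread than that of all probes is therefore not shown to be particular to proteasome genes. The same limit applies to the shares of confidence intervals within 2-fold given below. Only 1 of the 40, Psme3, had group means at least 1 apart. Their SD between replicates was a median of 0.42 in WT scWAT, 0.24 in Lr11-/- scWAT, 0.18 in WT BAT and 0.12 in Lr11-/- BAT. The same medians over all tested probes were 0.52, 0.37, 0.24 and 0.21. For Psmb8, Psmb9 and Psmb10 they were 0.73, 0.48, 1.02 and 0.57, so the median SD of the immunoproteasome was above that of the remaining members in each group. Single members could differ from this order. In Lr11-/- scWAT the SD was 0.21 for Psmb10 and 0.94 for Psmb5. The spread had a pattern by array. Lr11-/- scWAT replicate 1 was the lowest of its group for 32 of the 40 genes and replicate 3 the highest for 28, and in WT scWAT replicate 2 was the lowest for 25 and replicate 3 the highest for 24.

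**Figure D1:**
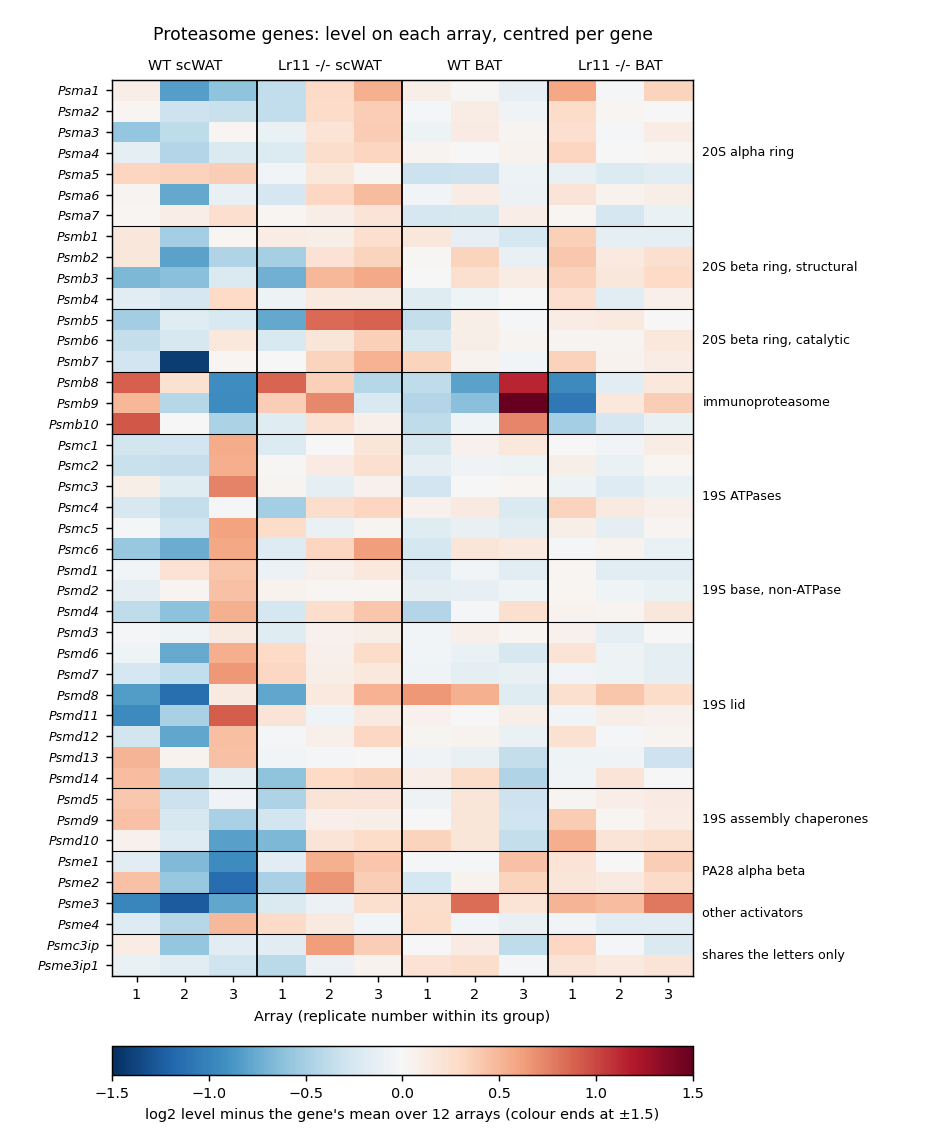
Heat map of the 43 tested genes of the name rule (rows, grouped by role; 41 are proteasome genes) on the 12 arrays (columns). Colour is the log2 level minus the gene's mean over the 12 arrays, and the colour scale ends at 1.5 either way. Psme3 is low on the 3 WT scWAT arrays, and Psmb8, Psmb9 and Psmb10 differ between arrays of the same group.

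In scWAT, 1 of the 43 tested genes was called between the genotypes, and it was higher in Lr11-/- (2.33%, against 5.26% of all tested probes called in either direction and 3.39% called higher). It was Psme3, which encodes PA28 gamma, a nuclear cap of the 20S core that opens it without ubiquitin or ATP. At an unadjusted p under 0.05 there were 3 genes, Psme3, Psme1 and Psmb7, against 27.6% of all probes. The 95% confidence interval of the difference lay within 2-fold either way for 28 of the 43, against 34.3% of all probes. In BAT 0 of the 43 were called (0.0187% of all probes) and 0 had an unadjusted p under 0.05 (2.12% of all probes), and the interval lay within 2-fold for 38 (54.1% of all probes).

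Psme3 was at 1.63, 1.36 and 1.83 in WT scWAT and at 2.39, 2.52 and 2.85 in Lr11-/- scWAT. It was at 2.87, 3.45 and 2.82 in WT BAT and at 3.12, 3.07 and 3.40 in Lr11-/- BAT. All 3 Lr11-/- scWAT arrays lay above all 3 WT scWAT arrays, and both BAT groups lay above WT scWAT without overlap, while the genotypes overlapped in BAT. The means were 1.61 ± 0.23 and 2.59 ± 0.24 in WT and Lr11-/- scWAT and 3.05 ± 0.35 and 3.20 ± 0.18 in WT and Lr11-/- BAT (SD, n = 3 each). The difference in scWAT was 0.98 or 1.97-fold (SE 0.24, 95% confidence interval 0.45 to 1.51, limma adjusted p = 0.046). A two-sided exact permutation test gave p = 0.1, the smallest that 3 arrays against 3 allow. In BAT the difference was 0.15 (interval -0.38 to 0.68, adjusted p = 1). The genotype effect in scWAT minus that in BAT was 0.83 (interval 0.08 to 1.57, adjusted p = 0.42), so the effects were not shown to differ between the tissues.

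The levels of Psme3 can be set beside those of the brown adipocyte markers. In scWAT the lowest Psme3, on WT replicate 2, came with the lowest marker mean (-2.80), and the highest Psme3 levels, on Lr11-/- replicates 2 and 3, came with the highest marker means (6.16 and 6.15). WT replicate 3 and Lr11-/- replicate 1 had close marker means (2.21 and 2.48), with Psme3 at 1.83 and 2.39. WT replicate 1 had a marker mean of -1.04, with Psme3 at 1.63. The part of the cell types in the Psme3 difference between the genotypes was not tested. The call of Psme3 in scWAT was narrow. It was kept in 9 of 27 alternative fits, with adjusted p between 0.02 and 0.32 and a log2 difference between 0.73 and 1.19. Among the arrays left out in turn, it was kept without WT scWAT replicate 1 (0.043) or 3 (0.025) or Lr11-/- scWAT replicate 1 (0.02), and lost without Lr11-/- scWAT replicate 2 (0.16) or 3 (0.19), WT scWAT replicate 2 (0.12), or any 1 BAT array (0.067 to 0.073). Within the first array series, 1 array per group, the difference was 0.76, and within the second it was 1.09. Blocking on the array series gave an adjusted p of 0.051, and blocking on the slide gave 0.065. On the 7 arrays low in muscle markers the difference was 1.19 (adjusted p = 0.05).

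The start regions of the 2 called genes are given from RefSeq on GRCm38.p6, to show what lies at their starts. Each line holds 120 bases before the start and 30 from it on, and capitals mark a match to one of 4 motifs described with the immunoproteasome.
Psme3 (chr11:101316093-101316242, + strand): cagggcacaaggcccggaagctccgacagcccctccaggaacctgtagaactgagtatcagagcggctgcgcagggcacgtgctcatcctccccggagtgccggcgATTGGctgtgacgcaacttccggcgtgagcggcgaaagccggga
Psma5 (chr3:108256806-108256955, + strand): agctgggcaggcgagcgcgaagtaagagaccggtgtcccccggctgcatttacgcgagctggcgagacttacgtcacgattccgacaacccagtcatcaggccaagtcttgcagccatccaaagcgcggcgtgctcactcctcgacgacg
The capitals in the Psme3 line are a CCAAT box on the opposite strand, and the Psma5 line holds none of the 4 motifs. Psma5 was called in the comparison of the tissues.

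**Figure D2:**
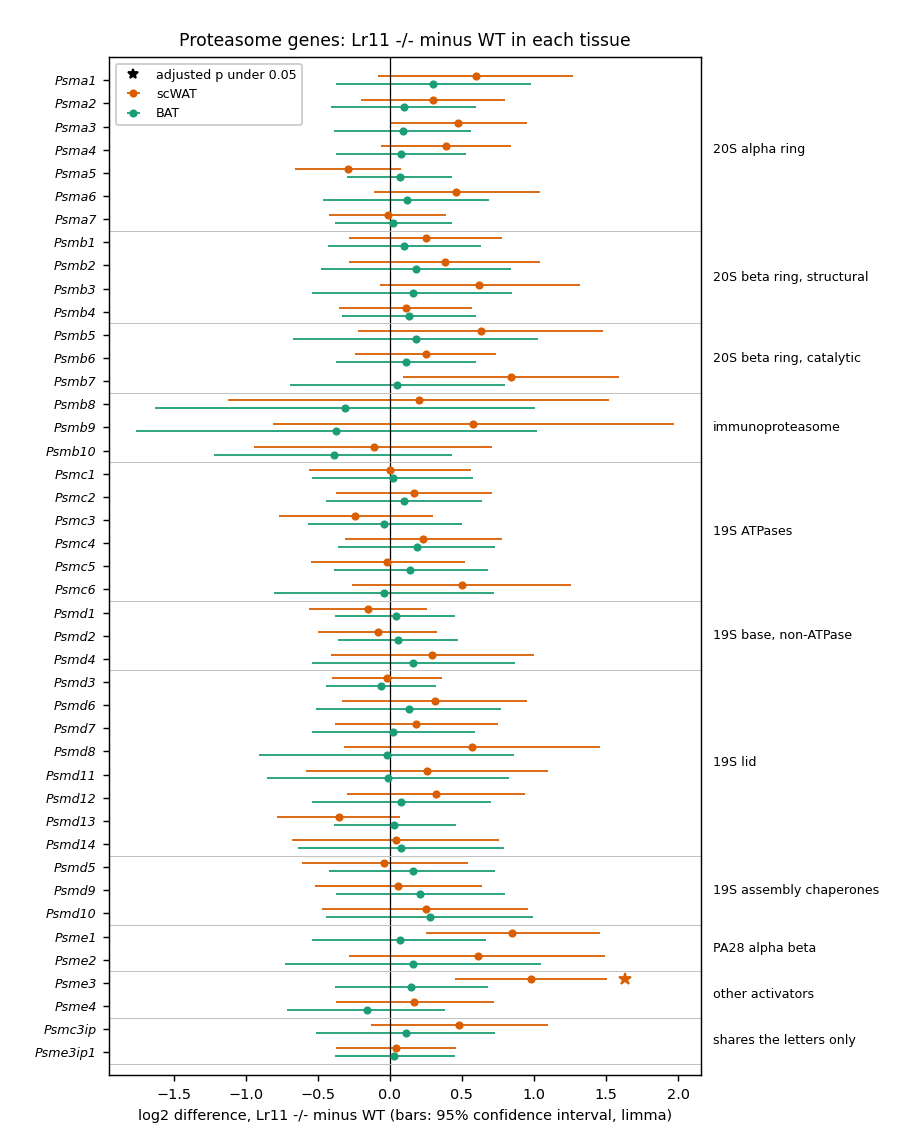
Log2 differences, Lr11-/- minus WT, of the 43 tested genes in scWAT (orange) and BAT (green), with points for the limma estimates and bars for 95% confidence intervals. The star marks Psme3 in scWAT (0.98), the only gene of the 43 with an adjusted p under 0.05.

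The other PA28 cap, of Psme1 and Psme2, is inducible by interferon and helps release peptides for presentation. Psme1 was at 3.82, 3.31 and 3.03 in WT scWAT and at 3.81, 4.51 and 4.39 in Lr11-/- scWAT. The groups overlapped through Lr11-/- replicate 1, which was just below WT replicate 1. The difference was 0.85 (interval 0.25 to 1.46, limma adjusted p = 0.085), and it was -0.02 within the first array series and 1.28 within the second. Psme1 passed the threshold without WT scWAT replicate 1 (1.07, adjusted p = 0.035) or without Lr11-/- scWAT replicate 1 (1.07, 0.024). Psme2 was 0.61 higher in Lr11-/- scWAT on average (interval -0.28 to 1.49, adjusted p = 0.35), and in BAT the differences of Psme1 and Psme2 were 0.07 and 0.16. Psme4, which encodes the nuclear activator PA200, differed by 0.17 in scWAT and -0.16 in BAT, with adjusted p of 0.68 and 1.

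Of the constitutive cutting subunits, Psmb5 carries the chymotrypsin-like, Psmb6 the caspase-like and Psmb7 the trypsin-like activity. Psmb5 was at 6.47, 6.81 and 6.76 in WT scWAT and at 6.22, 7.84 and 7.87 in Lr11-/- scWAT. Lr11-/- replicate 1 was below all WT arrays and replicates 2 and 3 were above all of them. The mean difference was 0.63 (interval -0.22 to 1.48, limma adjusted p = 0.31), with -0.24 within the first array series and 1.07 within the second. Without Lr11-/- scWAT replicate 1 it was 1.18 (adjusted p = 0.0054). That array held high skeletal muscle markers (mean 8.54) and fewer brown adipocyte transcripts than the other 2 of its group. It also differed from them in array series and slide. The parts of these cannot be told apart on this array and were not tested. Psmb7 was at 3.62, 2.48 and 3.94 in WT scWAT and at 3.90, 4.24 and 4.43 in Lr11-/- scWAT, with WT replicate 2 far below the other 5 arrays. It differed by 0.84 (interval 0.09 to 1.59, adjusted p = 0.14), by 0.41 without that replicate, which had the highest leukocyte and the lowest adipocyte markers, and by 1.14 without WT scWAT replicate 3 (adjusted p = 0.047). Psmb6 differed by 0.25 (adjusted p = 0.49). In BAT the differences of Psmb5, Psmb6 and Psmb7 were 0.18, 0.11 and 0.05.

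The remaining rings and caps are given by role. In scWAT the differences of the 7 tested alpha ring genes ran from -0.29 to 0.60, those of the 4 structural beta subunits from 0.11 to 0.62, and those of the 6 ATPases of the 19S base from -0.24 to 0.50. The 3 other base subunits ran from -0.15 to 0.29, the 8 lid subunits from -0.35 to 0.57, and the 3 assembly chaperones from -0.04 to 0.25. None of these was called (lowest limma adjusted p = 0.18). Psma1, of the outer ring, differed by 0.60 and Psmb3, a structural subunit, by 0.62 (adjusted p = 0.23 each). Psmd8, a lid subunit, differed by 0.57 and Psmc6, an ATPase, by 0.50. At the other end were Psmd13, a lid subunit, at -0.35, and Psma5, of the outer ring, at -0.29, both without overlap between the genotypes. With Psme3, 3 of the 43 genes had no overlap, 1 higher and 2 lower in Lr11-/-, against 20.4% of all probes (11.7% higher and 8.76% lower). Among the lowest were also Psmc3, an ATPase, at -0.24 and Psmd1, the largest scaffold of the base, at -0.15. In BAT the differences of all 43 ran only from -0.39 to 0.30, with Psma1 (0.30), Psmd10 (0.28), Psmd9 (0.21), Psmc4 (0.19) and Psmb5 (0.18) at the top and Psmb10, Psmb9, Psmb8, Psme4 and Psmd3 (-0.06) at the bottom. Psmd9 and Psmd10 are chaperones of the base and are absent from the finished particle. No gene had separate groups in BAT, where 12.1% of all probes had.

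Which genes were called in scWAT depended on the arrays. The share of all probes called moved with the arrays as well, and the counts of members are a description of each fit. On the 7 arrays low in muscle markers 4 of the 43 were called, all higher in Lr11-/-, namely Psmb3, Psmb5, Psmc6 and Psmd8, and 11.2% of all probes were (7.37% higher). In the second array series alone 6 were called, all higher, namely Psma1, Psmb2, Psmb3, Psmb5, Psme1 and Psme2, and 22.6% of all probes were (15.2% higher). Psme3 was not called in either, with adjusted p of 0.05 and 0.054.

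A common shift of the 43 genes relative to all probes could not be fixed, as it was smaller or reversed with quantile normalization. In scWAT 32 of the 43 were above 0 (74.4%, against 52.5% of all probes), with a median of 0.25 against 0.04 over all probes. With quantile normalization the medians of the 43 and of all probes were 0.06 and 0.03 (23 of 43 above the median of all probes). With normexp background correction they were 0.23 and 0.08 (30 of 43). They were 0.37 and 0.17 with median scaling, and 0.00 and -0.20 without scaling. Median scaling and no scaling shift all probes of a comparison alike, so the main count of 31 of 43 cannot change under them. In BAT 34 of 43 were above 0 (79.1%, against 57.0% of all probes), with a median of 0.08 against 0.04 over all probes, and 28 lay above the median of all probes. With quantile normalization the medians were -0.01 and 0.02, and 18 lay above that of all probes. For 10 of the 45 genes the array had more than 1 probe. Their additional probes gave scWAT differences of the same sign and similar size for Psma4 (0.39 and 0.40), Psmb5 (0.63 and 0.84) and Psme2 (0.61 and 0.69), and of opposite sign for Psmd10 (0.25 and -0.11) and Psme4 (0.17 and -0.03).

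The immunoproteasome subunits were called in 0 of the comparisons made. Psmb8, which takes the place of Psmb5, was at 2.84, 2.18 and 1.02 in WT scWAT, at 2.82, 2.30 and 1.52 in Lr11-/- scWAT, at 1.57, 1.15 and 3.09 in WT BAT and at 0.99, 1.79 and 2.10 in Lr11-/- BAT. Psmb9, which takes the place of Psmb6, was at 2.59, 1.67 and 1.15, at 2.46, 2.82 and 1.87, at 1.66, 1.47 and 3.73 and at 1.02, 2.25 and 2.46 in the same order. Psmb10, which takes the place of Psmb7, was at 5.38, 4.46 and 3.98, at 4.27, 4.68 and 4.53, at 4.07, 4.39 and 5.19 and at 3.94, 4.20 and 4.34. WT BAT replicate 3 was the highest of its group for all 3 genes, and so was WT scWAT replicate 1, while the genotypes and the tissues overlapped throughout. The differences between the genotypes in scWAT were 0.20 (interval -1.12 to 1.52) for Psmb8, 0.58 (-0.81 to 1.97) for Psmb9 and -0.11 (-0.94 to 0.71) for Psmb10. In BAT they were -0.31 (-1.63 to 1.01), -0.37 (-1.76 to 1.02) and -0.39 (-1.22 to 0.43). All of these intervals but that of Psmb10 in scWAT reach beyond 2-fold, so they still hold a difference of that size.

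**Figure D3:**
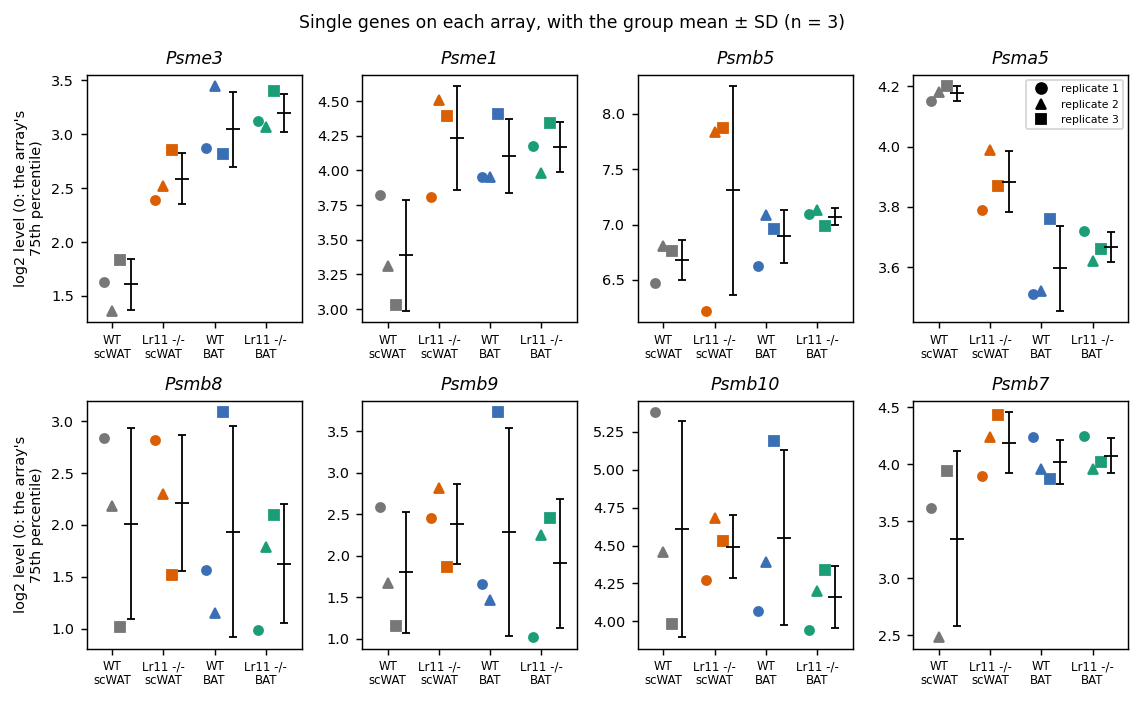
Log2 levels of 8 proteasome genes on each array (symbols give the replicate, colours the group), with the group mean and SD (n = 3) as black bars; the vertical axes differ. Psme3 and Psma5 separate WT scWAT from the BAT groups, whereas Psmb8, Psmb9 and Psmb10 overlap between all groups.

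The arrays with a high immunoproteasome also had high class I presentation genes. A list of 11 genes, which holds the peptide transporters Tap1 and Tap2, the class I chain B2m and the interferon regulator Irf1, averaged 3.54 on WT BAT replicate 3 and 3.49 on WT scWAT replicate 1, its highest values. Those were also the highest means of Psmb8, Psmb9 and Psmb10 (4.00 and 3.60). The lowest means of both lists were on Lr11-/- BAT replicate 1 (2.16 and 1.98) and WT scWAT replicate 3 (2.26 and 2.05). None of the 11 was called in any of the 5 comparisons (lowest limma adjusted p = 0.17). Leukocyte markers followed another order in scWAT, with 3.30 on WT scWAT replicate 2, where the immunoproteasome mean was 2.77. In BAT they were highest on WT replicate 3 (0.38) and lowest on Lr11-/- replicate 1 (-1.28), as the immunoproteasome was. T lymphocyte markers averaged highest on WT BAT replicate 3 (-0.27, 6 of 6 well above background) and lowest on Lr11-/- BAT replicate 1 (-2.53). On that array only 3 of 6 were well above background, so its mean includes markers near background. On WT scWAT replicate 1 the T lymphocyte markers averaged -1.26. Their summed level gave another order. It was 15.4 on Lr11-/- BAT replicate 1 and 16.9 on WT BAT replicate 3. In WT scWAT it ran from 6.84 to 10.2, and in Lr11-/- scWAT from 11.4 to 14.3. The summed leukocyte level ran from 10 to 86.8 in WT scWAT, 10.4 to 16.3 in Lr11-/- scWAT, 5.52 to 18.7 in WT BAT and 4.19 to 7.48 in Lr11-/- BAT. The part of immune cells in the immunoproteasome levels was not tested.

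**Figure D4:**
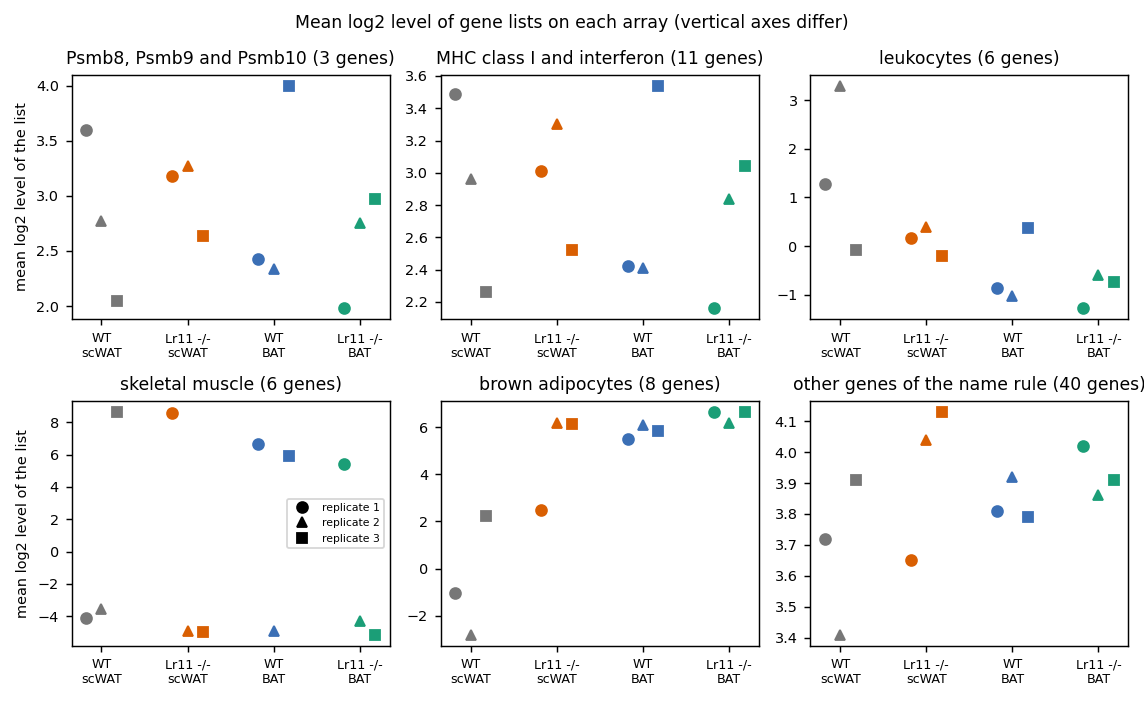
Mean log2 level of 6 gene lists on each array (symbols give the replicate, colours the group; vertical axes differ). The top row shows the immunoproteasome, class I presentation and leukocyte genes, and the bottom row skeletal muscle markers, high on 5 arrays, brown adipocyte markers, and the 40 tested genes of the name rule outside the immunoproteasome.

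Promoter windows of RefSeq, which run from 250 bases before to 50 after a start, matched 38 of the 45 genes. Both strands were searched for TGACNNNGC, the core of the antioxidant response element read by Nfe2l1 and Nfe2l2, for CCAAT, bound by NF-Y, for the interferon regulatory factor repeat, GAAA and GAAA split by any 2 bases, and for the palindrome TTCNNNGAA. TGACNNNGC was in the windows of 6 of the 38 genes (15.8%, against 14% of all 27025 genes with a window), among them Psmb5 and Psmb6. CCAAT was in 16 (42.1%, against 41.1%). The GAAA repeat was in 4 (10.5%, against 3.99%), Psme1, Psmb3, Psmd4 and Psmd9. TTCNNNGAA was in 2 (5.26%, against 9.55%), Psmb8 and Psmd2. The start regions of the immunoproteasome genes and Psme1 follow, in the format used for Psme3, because these genes are known to answer interferon. Psme2, which is too, is not printed, and its windows hold none of the 4 motifs.
Psmb8 (chr17:34198075-34198224, + strand): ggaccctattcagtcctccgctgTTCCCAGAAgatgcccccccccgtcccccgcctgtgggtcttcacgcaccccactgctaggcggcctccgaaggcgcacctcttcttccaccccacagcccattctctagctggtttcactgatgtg
Psmb9 (chr17:34187301-34187450, - strand): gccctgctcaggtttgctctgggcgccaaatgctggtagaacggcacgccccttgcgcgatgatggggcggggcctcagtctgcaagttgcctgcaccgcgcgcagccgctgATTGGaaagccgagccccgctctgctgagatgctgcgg
Psmb10 (chr8:105938363-105938512, - strand): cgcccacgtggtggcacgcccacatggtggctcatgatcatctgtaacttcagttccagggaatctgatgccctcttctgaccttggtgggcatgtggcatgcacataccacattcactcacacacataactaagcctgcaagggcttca
Psme1 (chr14:55578374-55578523, + strand): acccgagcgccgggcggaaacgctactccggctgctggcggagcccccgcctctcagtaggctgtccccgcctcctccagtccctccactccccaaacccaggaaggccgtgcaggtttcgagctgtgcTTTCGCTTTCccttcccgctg
Psmb8 holds a TTCNNNGAA match, Psmb9 a CCAAT box on the opposite strand, and Psme1 a GAAA repeat on the opposite strand after its start. Psmb10 holds none of the 4 in this stretch. No match overlapped another in the printed lines. A match is a description of letters and no evidence of binding.

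Between the tissues of WT mice, 2 of the 43 tested genes were called (4.65%, against 24.8% of all probes), 1 higher and 1 lower in BAT (15.7% and 9.13% of all probes). Psme3 was 1.44 higher in BAT (SE 0.24, interval 0.91 to 1.97, limma adjusted p = 0.0045). This call held in all 27 alternatives, with a difference between 1.12 and 1.96. Of the array series, the first alone gave 1.24 and the second 1.54. In the first series the tissues were on different slides, so tissue and slide cannot be told apart there. Psma5, a subunit of the outer ring, was at 4.15, 4.18 and 4.20 in WT scWAT, at 3.79, 3.99 and 3.87 in Lr11-/- scWAT, at 3.51, 3.52 and 3.76 in WT BAT and at 3.72, 3.62 and 3.66 in Lr11-/- BAT. WT scWAT lay above all other groups, Lr11-/- scWAT lay above both BAT groups, and the BAT groups overlapped. The difference in WT was -0.58 (SE 0.17, interval -0.95 to -0.21, adjusted p = 0.03), and it was called in 16 of 27 alternatives, with adjusted p up to 0.17. It was lost without WT scWAT replicate 2 (0.056), WT BAT replicate 1 (0.099) or 2 (0.11), or Lr11-/- BAT replicate 3 (0.051), and on the 7 arrays low in muscle markers (-0.64, adjusted p = 0.17).

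Other members of the WT comparison did not pass the test. Psmd8 differed by 0.94 (interval 0.05 to 1.83, limma adjusted p = 0.11), Psme1 by 0.71 (0.078), Psmb7 by 0.68 and Psmb3 by 0.63 (0.16 each), and Psmd13 by -0.51 (0.074). Psmd1, at -0.34, Psmc3, at -0.31, and Psma7, of the outer ring, at -0.25, were the next lowest. Psmd13 was at 3.82, 3.36 and 3.75 in WT scWAT and at 3.25, 3.20 and 2.95 in WT BAT, without overlap. For 8 of the 43 genes the tissues did not overlap, 5 higher and 3 lower in BAT, against 40.2% of all probes (24.3% higher and 15.9% lower). At an unadjusted p under 0.05 there were 5 genes, against 40.1% of all probes. The interval lay within 2-fold for 29 of the 43 genes, against 28.0% of all probes. The difference was above 0 for 28 of the 43 genes (53.5% of all probes). The median of the 43 was 0.11, against 0.07 over all probes, and 24 of the 43 lay above the median of all probes. With quantile normalization the medians were -0.02 and 0.05, and 17 lay above that of all probes. The immunoproteasome differed by -0.08 for Psmb8, 0.48 for Psmb9 and -0.05 for Psmb10.

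Between the tissues of Lr11-/- mice 0 of the 43 were called, where 0.0405% of all probes were, and 1 had an unadjusted p under 0.05 (9% of all probes). That gene was Psme3, 0.61 higher in BAT (interval 0.09 to 1.14, limma adjusted p = 0.48), again with all BAT arrays above all scWAT arrays. Psmd10 (0.39), Psmd8 (0.34), Psme3ip1 (0.32) and Psmb2, a structural subunit, (0.24) followed. The lowest were Psmb8 (-0.59), Psmb9 (-0.47), Psmb10 (-0.33), Psmc6 (-0.28) and Psmd7, a lid subunit, (-0.27). For 7 genes the tissues did not overlap, 2 higher and 5 lower in BAT (23.2% of all probes), and the interval lay within 2-fold for 35 (43.8%). The adjusted p of Psme3 ranged from 0.074 to 0.94 over the alternatives. The difference was above 0 for 14 of the 43 genes (56.6% of all probes), with a median of -0.05, against 0.07 over all probes. The number above the median of all probes was 10 of the 43, and 9 with quantile normalization. The 2 tissue comparisons and the 2 genotype comparisons share groups, so their values are not independent.

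**Figure D5:**
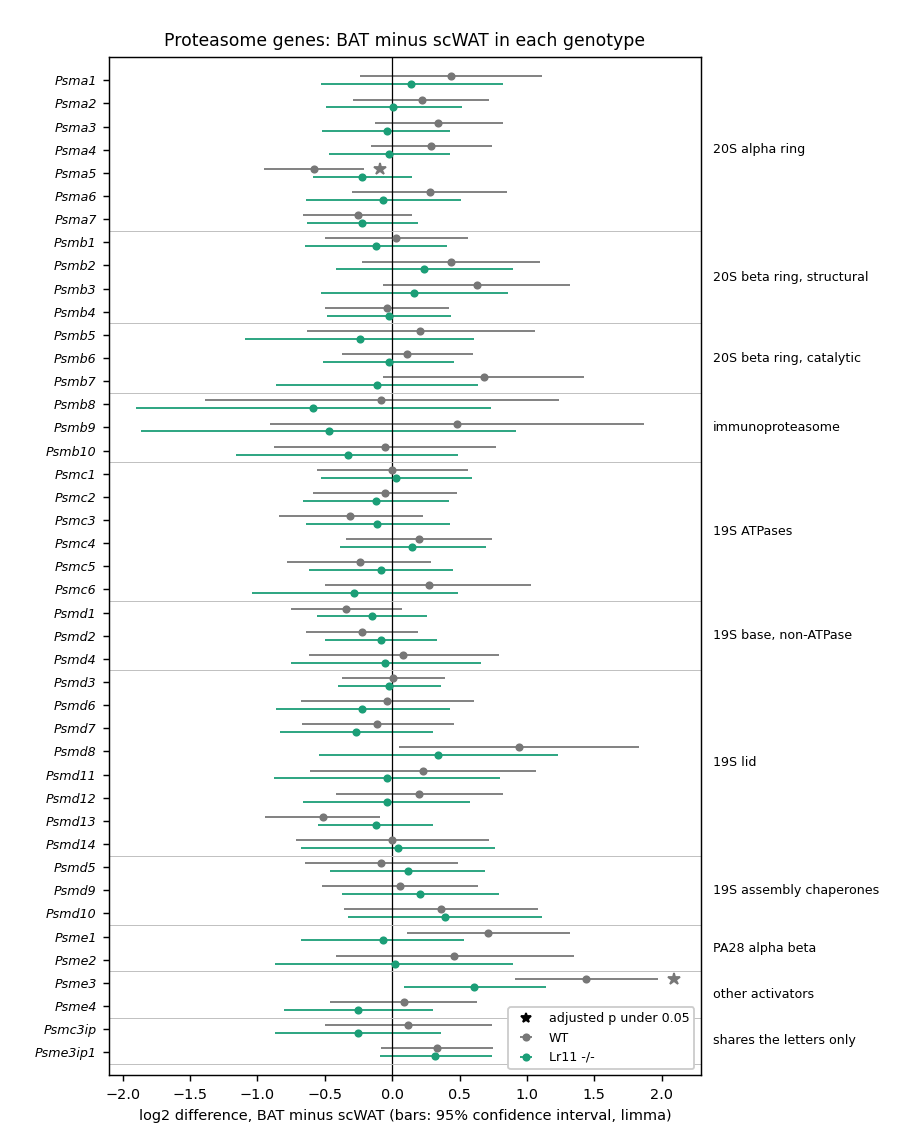
Log2 differences, BAT minus scWAT, of the 43 tested genes in WT (grey) and Lr11-/- mice (green), with points for the limma estimates and bars for 95% confidence intervals. Stars mark Psme3 (1.44) and Psma5 (-0.58) in WT, the genes with an adjusted p under 0.05.

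The genotype effect in scWAT minus that in BAT was called for 0 of the 43 genes and 0 of all probes (0%). At an unadjusted p under 0.05 there was 1 gene, Psme3, against 11.0% of all probes, and 30 of 43 were above 0 (51.1% of all probes). Psmb9 had the highest difference (0.95, interval -1.01 to 2.92), followed by Psme3 (0.83), Psme1 (0.79), Psmb7 (0.78) and Psmd8 (0.60). The lowest were Psmd13 (-0.39), Psma5 (-0.36), Psmc3 (-0.20), Psmd5, a chaperone of the base, (-0.19) and Psmd1 (-0.18). The interval lay within 2-fold for 19 of the 43, against 17.1% of all probes, so for the other members the interval still held a 2-fold difference between the effects.

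Genes that act with the proteasome were followed on lists outside the name rule. Of 15 assembly factors and associated proteins, 0 were called between the genotypes in scWAT or BAT (5.26% and 0.0187% of all probes), and 2 were called between the tissues in WT (13.3%, against 24.8% of all probes). Psmg1, a chaperone that pairs alpha subunits, was 1.03 higher in BAT (limma adjusted p = 0.044) and Txnl1, a thioredoxin-like protein bound to the 19S cap, was 0.87 lower (log2 difference -0.87, adjusted p = 0.013). In scWAT Psmg1 was at 3.63, 3.15 and 3.10 in WT and at 3.35, 4.56 and 4.64 in Lr11-/-, a difference of 0.89 (adjusted p = 0.12). Lr11-/- replicate 1 stayed within the WT range and the other 2 arrays lay above it. For Psmb5 those 2 arrays also lay above the WT range, but replicate 1 lay below it. Zfand2a, a stress-induced cofactor, differed by -0.77 in scWAT (adjusted p = 0.26).

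Of 10 factors that drive proteasome transcription or process its activator, 0 were called between the genotypes and 1 was called between the tissues in WT (10%, against 24.8% of all probes). Nfyc, a subunit of NF-Y, was 1.01 higher in BAT (limma adjusted p = 0.022). It was at 2.91, 2.99 and 3.17 in WT scWAT, at 2.99, 4.00 and 3.90 in Lr11-/- scWAT and at 3.81, 4.21 and 4.07 in WT BAT. Lr11-/- scWAT replicate 1 lay with the WT scWAT arrays and the other 2 lay with BAT. Nfe2l1, the main activator of proteasome genes in brown fat, differed by 0.33 in scWAT and 0.06 in BAT between the genotypes and by 0.61 between the tissues in WT (adjusted p = 0.61, 1 and 0.26). Nfya differed by -1.05 in scWAT (adjusted p = 0.27), through 1.56 on WT scWAT replicate 2 against -1.28 and -0.90 on the other WT arrays.

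Of 13 ubiquitin genes, conjugating enzymes and shuttle factors, 0 were called between the genotypes and 2 between the tissues in WT (15.4%, against 24.8% of all probes). Ube2d3, a conjugating enzyme, was 0.84 higher in BAT, and Ubqln2, a shuttle factor, differed by -1.01 (limma adjusted p = 0.039 and 0.027). Ubiquitin genes have near-identical copies, which a probe may not tell apart. Ubqln2 was at 0.52, 0.30 and 0.59 in WT scWAT and at 0.21, -0.90 and -0.93 in Lr11-/- scWAT, without overlap, a difference of -1.01 (adjusted p = 0.061). It was at -0.57, -0.57 and -0.46 in WT BAT, so Lr11-/- scWAT replicates 2 and 3 lay below WT BAT and replicate 1 near the WT scWAT arrays.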

How the data were processed

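RNA from the BAT and scWAT of Lr11-/- and WT mice was hybridised to one-colour Agilent mouse arrays. The files deposited by the authors hold an intensity per spot, the processed signal, which was background-subtracted and detrended within an array by Agilent Feature Extraction 10.10 and not normalized between arrays. The deposited value table repeats this signal for all 12 arrays (62976 features, equal within a relative 1e-04), with column medians of 29.2 to 49.2, so it was no separate alternative. Outlier spots (128 to 181 per array) were left out, log2 values of 1 probe's spots were averaged and the 75th percentile (374 to 632) was subtracted. Outside the controls an array had 59305 spots, of which 32377 to 37002 exceeded background by the scanner's flag, and 0 were saturated. Symbols were looked up by accession in RefSeq's GRCm38.p6 gene list (27235 of 28685 probes with an accession). The array was designed on another assembly, so no probe coordinates are given.

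Groups came from the source labels, and since these number no replicates, 1 to 3 only name the arrays. Replicate 1 is the array of the first array series, and replicates 2 and 3 are of the second. In the first series the scWAT arrays were on slide 1 and the BAT arrays on slide 3, scanned on different days. The second series was all on slide 2. The 12 arrays entered 1 fit with 4 group means in limma 3.58.1 (lmFit, eBayes; R 4.3.3), and p-values were adjusted over all 32131 tested probes. Among the tested probes 26 values were missing, 0 of them of the 43 tested members. Exact permutation tests were two-sided. Scripts were tested on simulated data. Figures used Python 3.11.15 with matplotlib 3.10.9 and numpy 2.4.6. The members, gene lists and tests were chosen with earlier results of these data known. Always named were the cutting, immunoproteasome and activator genes, Psma8 and Psmb11, in each comparison also the 5 highest and 5 lowest tested members and every called member, and up to 4 genes of a list outside the name rule. The lists are given without 2 genes that are not reported here.

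The alternatives were other scalings (quantile, median, none), normexp background, other filters, outlier spots kept, blocks for the array series and slide, each array series alone, array weights, robust estimation, only the arrays compared, the mean of a gene's probes, a threshold of 0.1 and each array left out.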

Additional observations from a re-analysis of the deposited data

How the results depend on the processing

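Psme3 kept its direction and its call between the tissues in WT under all 27 alternatives. In each alternative run for them, 0 members were called between the genotypes in BAT or for the difference of the genotype effects, which needs all groups and so had no fit with only the arrays compared. Between the genotypes in scWAT, where 1 gene was called, the count was 0 with median scaling, without scaling, without a filter, with a block for the slide or for the series, with array weights and with only the arrays of the groups compared, 6 in the second array series alone, 2 at an adjusted p under 0.1, 4 on the 7 arrays low in muscle markers (the lone WT BAT array then being assumed to vary like the others), and 0 to 4 with 1 array left out, where 0.00934% to 19.8% of all probes were called. Between the tissues in WT, where 2 were called, it was 4 with quantile normalization and at an adjusted p under 0.1, 1 with median scaling, without a filter, with the slide as a block, with array weights, with only the arrays of the groups compared and on those 7 arrays, and 1 to 4 with 1 array left out (10.2% to 31.9% of all probes). Between the tissues in Lr11-/- it was 1 with array weights (Psmb5, lower in BAT). The cause of these changes was not tested. The median of all probes moved from 0.04 to -0.20 in scWAT without scaling. Normexp on the median signals and the 7 arrays were chosen after seeing the data. Normexp on the mean signals was not run, since these are not used here. No paired analysis was possible because the labels carry no replicate numbers.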
